A study of Mus musculus with 24 samples.

Results

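Glutathione S-transferases join the tripeptide glutathione to reactive electrophiles, among them drug metabolites and the aldehydes left by lipid peroxidation, so that they can be exported from the cell. The soluble enzymes fall into classes named by Greek letters. In heart, where mitochondria produce reactive oxygen continuously, they are known chiefly for handling such aldehydes, and several of their genes are textbook targets of the transcription factor NRF2.

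Described here are 10 genes of the family, picked by their symbols in the gene table: Gstm1, Gstm2, Gstm4, Gstm5 and Gstm7 of the mu class, Gsta3 and Gsta4 of the alpha class, Gstp1 of the pi class, Gstt1 of the theta class and Gstk1 of the kappa class. They are 10 of 20961 genes in the table, and all 10 passed the low-count filter that left 17203 genes for testing.

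The samples are 24 RNA libraries of whole heart from wild-type mice with no other treatment, of 3 inbred strains. These are C57BL/6J, CAST/EiJ and also NZO/HlLtJ. Females and males of each strain ate a diet with 10% or 44% fat, both labelled with fiber and named control or high fat, high sugar, from week 6 of age until hearts were taken at week 15. Each of the 12 combinations of strain, sex and diet has 2 libraries, so a strain has 8 and a diet within a strain has 4. The labels do not say that the 2 libraries came from separate animals, so p-values here reflect the scatter among libraries, which may be technical in part.

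Total counts per library ran from 30205073 to 52254058. Levels are given as CPM, read counts scaled to a common library size and corrected for library composition. The lowest count of any of the 10 genes in a library was 89, for Gsta3, where counting error alone is 10.6%, and the highest was 9940, for Gstm1. Cardiomyocyte markers were abundant in every library, with a summed level over 10 genes of 53293 to 67039 CPM. A difference in whole heart may lie in the number of cells of a type or in the RNA per cell, and these cannot be told apart. How reads from CAST/EiJ and NZO/HlLtJ were aligned, given that the GRCm38 reference is C57BL/6J sequence, is not given in the sources used here, and its part in the strain differences was not tested.

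The 5 mu genes lie in 1 cluster on chromosome 3 of GRCm38, which also holds Gstm6, between positions 107895821 (the start of Gstm5) and 108044894 (the end of Gstm4). Gstm5 is on the plus strand and the others on the minus strand. These paralogs are alike enough that the assignment of reads matters. The first 120 coding bases of 4 of them, from the GENCODE M21 transcripts, are shown because they let a reader see how far 100-base reads can separate the genes whose levels moved in opposite directions below. Capitals mark the bases that differ from Gstm1 at the same position.
Gstm1: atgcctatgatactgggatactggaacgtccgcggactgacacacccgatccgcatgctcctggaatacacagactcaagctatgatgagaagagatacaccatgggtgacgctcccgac
Gstm2: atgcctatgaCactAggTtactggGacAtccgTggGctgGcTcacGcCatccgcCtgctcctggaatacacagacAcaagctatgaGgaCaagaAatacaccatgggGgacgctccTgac
Gstm7: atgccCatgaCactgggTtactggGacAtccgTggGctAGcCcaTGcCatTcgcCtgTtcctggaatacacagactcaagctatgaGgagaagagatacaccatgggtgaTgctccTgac
Gstm4: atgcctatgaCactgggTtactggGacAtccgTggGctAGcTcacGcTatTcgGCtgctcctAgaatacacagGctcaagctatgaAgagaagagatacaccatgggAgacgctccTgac

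Within this stretch Gstm2 differed from Gstm1 at 18 bases, and Gstm7 and Gstm4 at 19 each. Over the whole coding sequence, identity to Gstm1 was 85.9% for Gstm2, 82.6% for Gstm7 and 80.7% for Gstm4. Of all 100-base stretches of the Gstm1 transcript, 7.73% also occur in another annotated transcript (Gstm3, Gm8834 or Gstm2-ps1). The share was 0.622% for Gstm2, with the predicted gene Gm12499, and 0 for Gstm4, Gstm5, Gstm7, Gsta3, Gsta4, Gstk1 and Gstt1.

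Gstp1 and its neighbour Gstp2, both on the minus strand of chromosome 19, are far closer. Their coding sequences were 98.1% identical, and 52.8% of the 100-base stretches of Gstp1 occur in Gstp2 as well, some of them also in the pseudogene Gstp-ps (210 of 722 stretches). Their first 120 coding bases differ at 6 positions, in capitals.
Gstp1: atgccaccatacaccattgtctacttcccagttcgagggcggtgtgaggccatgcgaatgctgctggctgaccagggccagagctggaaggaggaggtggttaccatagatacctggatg
Gstp2: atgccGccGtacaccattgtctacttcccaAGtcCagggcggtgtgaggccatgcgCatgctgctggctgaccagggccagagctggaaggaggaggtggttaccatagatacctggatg

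Levels between genes were compared per kilobase of exon. Gstm1 was the most abundant of the 10 in every strain, at 90.2 ± 4.44 CPM per kb in C57BL/6J, 134 ± 14.7 in CAST/EiJ and 75.1 ± 5.09 in NZO/HlLtJ (SD, n = 8), and its libraries did not overlap the next gene. Gsta3 had the lowest mean per kb in every strain, at 0.894 ± 0.173, 1.65 ± 0.376 and 1.03 ± 0.146 CPM per kb. That rank depends on length, since its exons span 4.344 kb while its transcript Gsta3-201 has 1457 bases. In CAST/EiJ it overlapped Gstt1 per kb, and its mean CPM, 7.18, was above the 4.41 of Gstt1. In C57BL/6J the order after Gstm1 was Gstp1, Gstm2, Gsta4 and Gstk1, and each of these overlapped the next. Gstm5 and Gstm7 followed and overlapped each other, and so did Gstt1 and Gstm4. In CAST/EiJ Gstm2 was rank 2, at 70.5 CPM per kb, apart from Gstk1 at 42.4, while Gstk1 and Gstp1 overlapped and Gstp1 and Gsta4 overlapped. In NZO/HlLtJ Gstm2 was rank 6, at 18.2 CPM per kb and overlapped Gstk1 above it and Gstm5 below it, while Gstm7 was among the top 3, at 36.6 CPM per kb and overlapped Gstp1 and Gsta4.

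Most of these genes differed between strains, and the mu genes did so in opposite directions. Against C57BL/6J, edgeR called 8 of the 10 in CAST/EiJ (6 higher, 2 lower) at an adjusted p under 0.05, where 58.8% of all tested genes were called (29.1% higher, 29.7% lower). It called 7 in NZO/HlLtJ (3 higher, 4 lower), where 35.5% were called (17.9% higher, 17.6% lower), and 9 between NZO/HlLtJ and CAST/EiJ (4 higher and 5 lower in NZO/HlLtJ), where 60.3% were called (30.5% higher, 29.8% lower). The 8 libraries of both strains did not overlap for 7 genes between CAST/EiJ and C57BL/6J (27.0% of all genes), 5 between NZO/HlLtJ and C57BL/6J (12.2%) and 6 between NZO/HlLtJ and CAST/EiJ (26.8%). The median log2 difference of the 10 was 0.40 in CAST/EiJ and -0.07 in NZO/HlLtJ against C57BL/6J, and -0.09 in NZO/HlLtJ against CAST/EiJ. The medians over all tested genes were 0.0011, 6.2e-06 and 0.0027. Each strain enters 2 of these comparisons, so they share libraries.

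**Figure D1:**
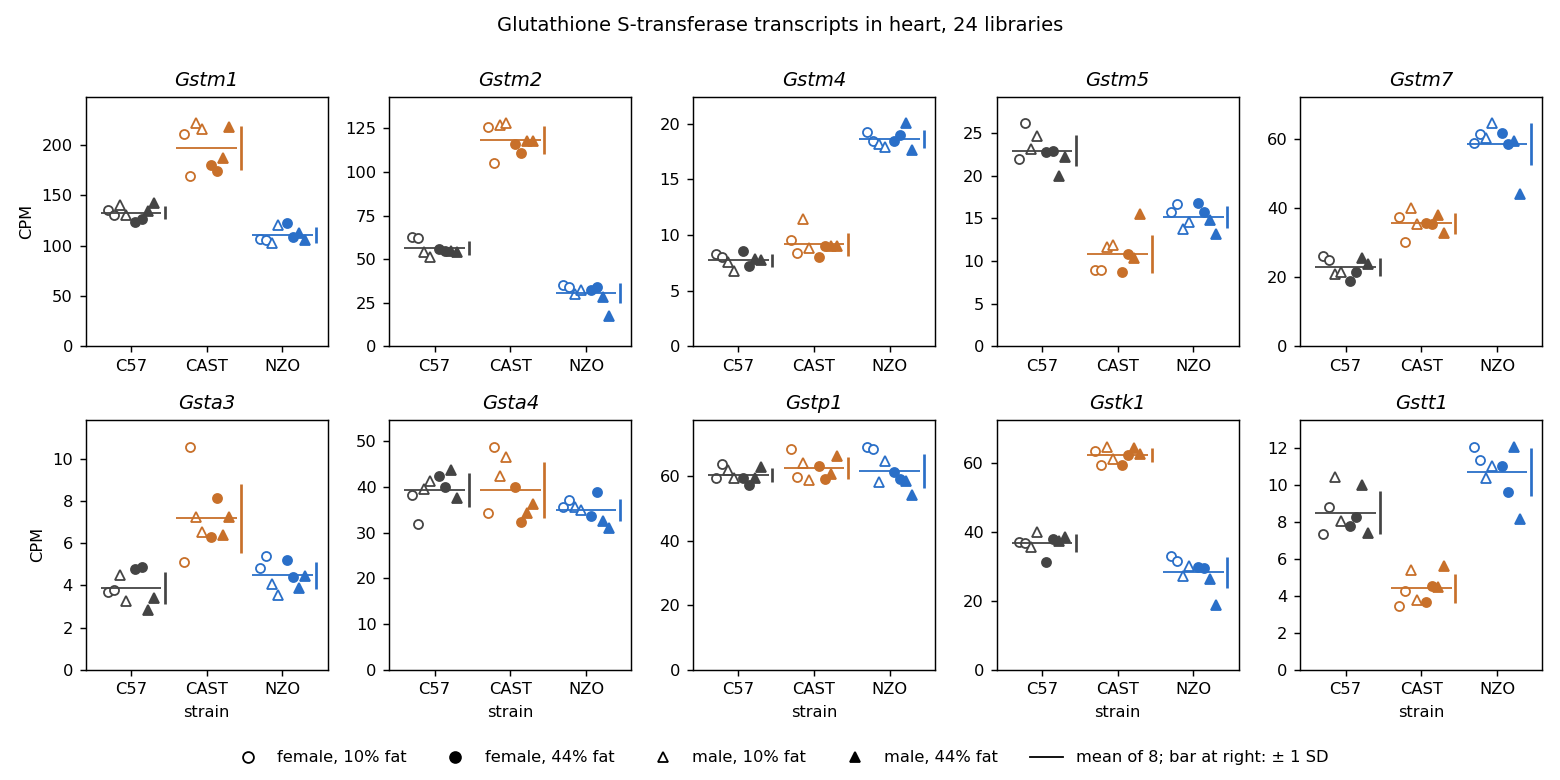
CPM (vertical axis, from 0, a scale of its own in each panel) of the 10 genes in each of 24 libraries by strain. Open marks are 10% fat, filled marks 44% fat, circles females and triangles males; lines are means of 8 libraries and bars ± 1 SD. Strains separate for Gstm1, Gstm2 and Gstm7, and overlap throughout for Gsta4 and Gstp1.

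Gstm2 showed the widest strain range. Its protein is a mu transferase known to bind the cardiac ryanodine receptor. It measured 51.4 CPM at lowest, 54.7 at the median and 62.9 at highest in C57BL/6J, 105, 118 and 128 CPM in CAST/EiJ, and 17.2, 32.3 and 35.1 CPM in NZO/HlLtJ. No library of one strain reached the range of another. The log2 difference was 1.08 ± 0.0709 (SE) for CAST/EiJ against C57BL/6J, -0.89 ± 0.072 for NZO/HlLtJ against C57BL/6J and -1.97 ± 0.0731 for NZO/HlLtJ against CAST/EiJ (edgeR adjusted p = 8.67e-10, 3.69e-08 and 4.09e-13).

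Gstm1, the main mu enzyme of this set, kept the same strain order with smaller steps. Its lowest, median and highest levels were 123, 132 and 142 CPM in C57BL/6J, 169, 199 and 221 CPM in CAST/EiJ, and 103, 108 and 123 CPM in NZO/HlLtJ. CAST/EiJ stood clear above both others, while the highest NZO/HlLtJ and the lowest C57BL/6J library nearly touched. The log2 difference from C57BL/6J was 0.57 ± 0.0494 in CAST/EiJ and -0.26 ± 0.0495 in NZO/HlLtJ (SE, edgeR adjusted p = 1.04e-08 and 0.00034).

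Gstm7 and Gstm4 were highest in NZO/HlLtJ, where Gstm1 and Gstm2 were lowest. Gstm7 measured 18.8, 22.6 and 26.1 CPM (lowest, median, highest) in C57BL/6J, 30.3, 35.5 and 40.1 CPM in CAST/EiJ, and 44.1, 59.8 and 64.4 CPM in NZO/HlLtJ. Its 3 strains did not overlap. Gstm4 measured 6.78, 7.81 and 8.56 CPM in C57BL/6J, 8.07, 8.98 and 11.5 CPM in CAST/EiJ, and 17.6, 18.5 and 20.0 CPM in NZO/HlLtJ, so that NZO/HlLtJ stood apart while the other strains overlapped. Against C57BL/6J, the log2 difference in NZO/HlLtJ was 1.36 ± 0.0611 for Gstm7 and 1.27 ± 0.0615 for Gstm4 (SE, edgeR adjusted p = 2.1e-12 and 6.73e-12). In CAST/EiJ it was 0.64 ± 0.0609 for Gstm7 and 0.24 ± 0.0622 for Gstm4 (adjusted p = 3.11e-08 and 0.00254).

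Gstm5, the most divergent mu gene of the cluster and the counterpart of human GSTM3, was highest in C57BL/6J. It measured 19.9, 22.8 and 26.1 CPM in C57BL/6J, 8.77, 10.6 and 15.6 CPM in CAST/EiJ, and 13.2, 15.3 and 16.8 CPM in NZO/HlLtJ. C57BL/6J stood clear of both others, which overlapped. The log2 difference from C57BL/6J was -1.10 ± 0.0723 in CAST/EiJ and -0.60 ± 0.0711 in NZO/HlLtJ (SE, edgeR adjusted p = 1.83e-10 and 1.88e-06). Gstm5 overlaps the annotated gene 4933431E20Rik, and since the strand setting of the counting is not given, reads of the pair could have been mixed.

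**Figure D2:**
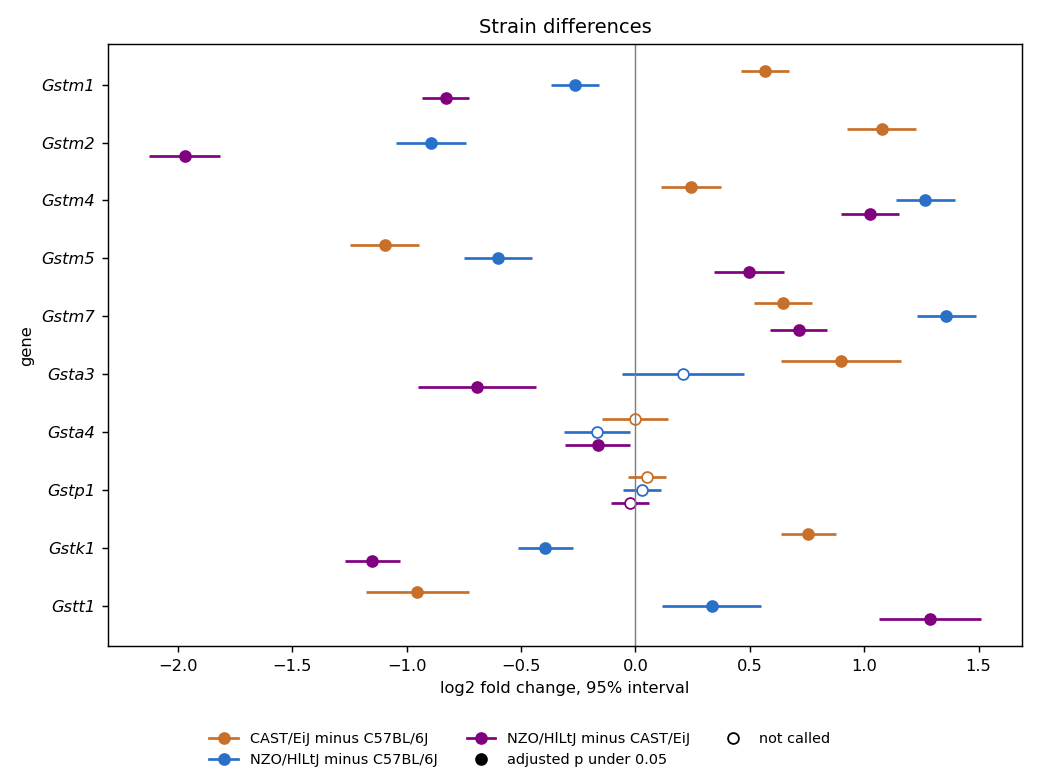
Log2 fold change between strains (horizontal axis) for each gene (vertical axis), with 95% intervals; filled points have an edgeR adjusted p under 0.05. Gstm2 lies at 1.08, -0.89 and -1.97 in the 3 comparisons, while all 3 points of Gstp1 lie within 0.05 of 0.

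Because the mu genes moved in opposite directions, their sum differed less than its parts between C57BL/6J and NZO/HlLtJ. The 5 mu genes summed to 243 ± 9.47 CPM in C57BL/6J, 371 ± 32.5 CPM in CAST/EiJ, and 234 ± 16.8 in NZO/HlLtJ (SD, n = 8). The CAST/EiJ sums (321 to 412 CPM) stood above both others, while those of C57BL/6J (229 to 254 CPM) and NZO/HlLtJ (198 to 252 CPM) overlapped. The makeup of the sum differed too. Gstm2 supplied 23.2% of the mu sum in C57BL/6J, 32.0% in CAST/EiJ and 13.0% in NZO/HlLtJ. Gstm7 supplied 9.41%, 9.62% and 25.0%, and Gstm4 3.20%, 2.47% and 8.01%. Gstm5 supplied 9.48% in C57BL/6J against 2.92% in CAST/EiJ and 6.50% in NZO/HlLtJ. Gstm1 stayed the largest contributor, at 54.7%, 53.0% and 47.5%. These sums and shares are descriptions without a test.

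**Figure D3:**
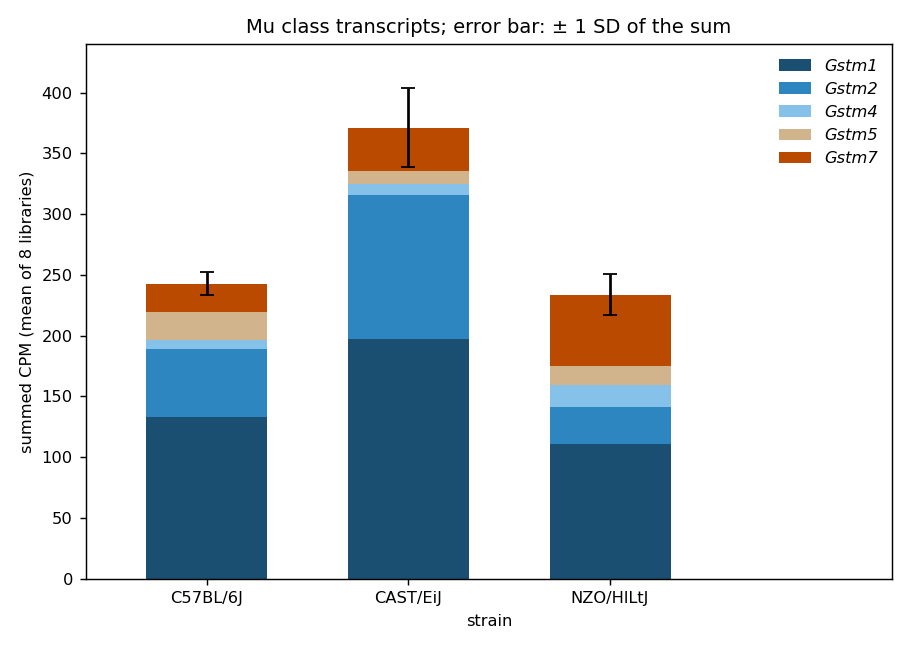
Mean CPM of the 5 mu genes stacked by strain (vertical axis, from 0; 8 libraries each); the error bar is ± 1 SD of the sum. The columns reach 243, 371 and 234 CPM, and the Gstm7 block is tallest in NZO/HlLtJ while the Gstm2 block is tallest in CAST/EiJ.

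Gstk1, the kappa transferase of mitochondria and peroxisomes, lies on chromosome 6 (42245935 to 42250447, plus strand) and followed the strain order of Gstm2. It measured 31.3, 37.4 and 39.9 CPM in C57BL/6J, 59.4, 62.6 and 64.8 CPM in CAST/EiJ, and 18.7, 29.7 and 33.1 CPM in NZO/HlLtJ. CAST/EiJ stood clear of both others, which overlapped. The log2 difference from C57BL/6J was 0.76 ± 0.0565 in CAST/EiJ and -0.39 ± 0.0571 in NZO/HlLtJ (SE, edgeR adjusted p = 1.13e-09 and 2.21e-05).

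Gstt1, a theta transferase that acts on small halogenated compounds, lies on chromosome 10 (75783813 to 75798584, minus strand) and ran the other way. It measured 7.34, 8.17 and 10.4 CPM in C57BL/6J, 3.45, 4.39 and 5.64 CPM in CAST/EiJ, and 8.16, 11.0 and 12.1 CPM in NZO/HlLtJ. CAST/EiJ stood clear below both others, which overlapped. The log2 difference from C57BL/6J was -0.95 ± 0.107 in CAST/EiJ (SE, edgeR adjusted p = 3.48e-07). In NZO/HlLtJ it was 0.33 ± 0.103 (adjusted p = 0.0162), a call that was lost, at 0.25 and an adjusted p of 0.0554, without the first NZO/HlLtJ male library at 44% fat.

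The alpha genes parted. Gsta3, on chromosome 1 (21240589 to 21265661, plus strand), measured 2.82, 3.74 and 4.88 CPM in C57BL/6J, 5.10, 6.87 and 10.6 CPM in CAST/EiJ, and 3.57, 4.42 and 5.38 CPM in NZO/HlLtJ. CAST/EiJ stood clear of C57BL/6J but overlapped NZO/HlLtJ, and the log2 difference was 0.90 ± 0.124 for CAST/EiJ against C57BL/6J and -0.69 ± 0.123 for NZO/HlLtJ against CAST/EiJ (SE, edgeR adjusted p = 4.76e-06 and 7.98e-05). Gsta3 overlaps the predicted gene Gm28836, so its counts are uncertain to that extent.

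Gsta4, the alpha enzyme with high activity toward the lipid aldehyde 4-hydroxynonenal, overlapped among all 3 strains. Gsta4 lies on chromosome 9 (78191966 to 78209348, plus strand). It measured 31.8, 39.8 and 43.7 CPM in C57BL/6J, 32.4, 38.1 and 48.8 CPM in CAST/EiJ, and 31.1, 35.3 and 38.9 CPM in NZO/HlLtJ. Its 1 call, -0.17 ± 0.0683 (SE, edgeR adjusted p = 0.0446) for NZO/HlLtJ against CAST/EiJ, was lost in 5 of 8 other settings and without any 1 of 16 of the 24 libraries, where the adjusted p rose to as much as 0.153 (log2 difference -0.10) without the second CAST/EiJ female library at 10% fat.

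Gstp1, the pi transferase that also binds the stress kinase JNK, was the steadiest of the 10 across strains. Gstp1 lies on chromosome 19 (4035407 to 4037921, minus strand) and measured 57.1, 59.5 and 63.8 CPM in C57BL/6J, 58.7, 61.8 and 68.3 CPM in CAST/EiJ, and 54.2, 60.1 and 69.1 CPM in NZO/HlLtJ. The strains overlapped, and the 95% intervals of the log2 difference ran from -0.03 to 0.13 for CAST/EiJ against C57BL/6J, from -0.06 to 0.11 for NZO/HlLtJ against C57BL/6J and from -0.11 to 0.06 for NZO/HlLtJ against CAST/EiJ.

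Its near-copy Gstp2 was not steady. Gstp2 measured 4.80, 5.22 and 6.92 CPM (lowest, median, highest) in C57BL/6J, 32.2, 38.0 and 50.6 CPM in CAST/EiJ, and 11.6, 14.7 and 16.2 CPM in NZO/HlLtJ. No strain overlapped another, and the log2 difference from C57BL/6J was 2.79 in CAST/EiJ and 1.33 in NZO/HlLtJ (edgeR adjusted p = 4.33e-15 and 5.22e-10). The sum of Gstp1 and Gstp2, which does not depend on how reads were divided between these 2 genes, was 66.0 ± 2.28 CPM in C57BL/6J, 101 ± 8.21 CPM in CAST/EiJ, and 75.9 ± 5.95 in NZO/HlLtJ (SD, n = 8). The part that read assignment between these copies and Gstp-ps plays in either gene's level or in the sum was not tested.

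**Figure D4:**
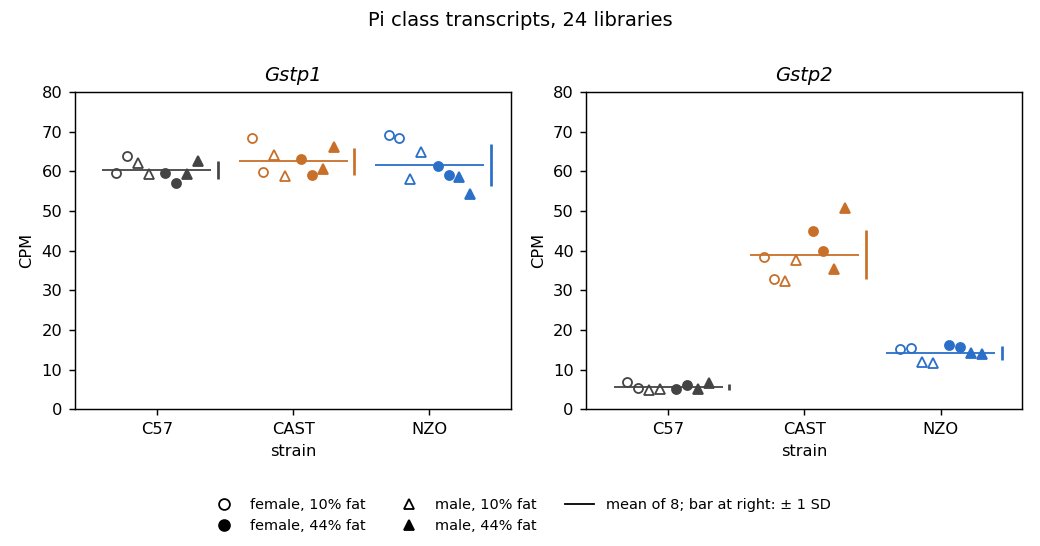
CPM of Gstp1 and Gstp2 (vertical axes, both 0 to 80) in each of 24 libraries by strain; marks, lines and bars are as in the plot of all 10 genes. Gstp1 lies between 54.2 and 69.1 CPM in every strain, while Gstp2 rises from at most 6.92 CPM in C57BL/6J to at least 32.2 CPM in CAST/EiJ.

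The study also asked whether the high fat, high sugar diet changed expression. For these 10 genes no diet effect was called. edgeR called 0 of 10 in C57BL/6J (0.0407% of all genes called), 0 of 10 in CAST/EiJ (0% of all genes), 0 of 10 in NZO/HlLtJ (0%) and 0 of 10 over all strains (0.157%). At an unadjusted p under 0.05 the counts were 0, 1, 3 and 2 of 10, and DESeq2 also called 0 in each. The libraries of both diets overlapped for all 10 genes in every strain, where 4.11%, 2.78% and 3.34% of all genes did not overlap in C57BL/6J, CAST/EiJ and NZO/HlLtJ. The 95% intervals bound the size of any effect. Over the 10 genes the lowest bound was -0.36 and the highest 0.40 (log2) in C57BL/6J, -0.47 and 0.44 in CAST/EiJ and -0.47 and 0.39 in NZO/HlLtJ. Over all strains they were -0.25 and 0.21. A p that misses the threshold does not show that the diets act alike.

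The genes with the smallest diet p-values were Gstk1, Gstp1 and Gstm2 in NZO/HlLtJ and Gsta4 in CAST/EiJ. In NZO/HlLtJ, Gstk1 measured 33.1, 31.6, 27.4 and 30.0 CPM at 10% fat and 29.8, 29.5, 26.2 and 18.7 CPM at 44% fat (females first). The lowest was the second male library at 44% fat, and the diets overlapped. The log2 difference was -0.24 ± 0.0811 (SE, edgeR adjusted p = 0.616). Gstp1 measured 69.1, 68.4, 58.0 and 64.8 CPM at 10% fat and 61.2, 59.0, 58.5 and 54.2 CPM at 44% fat in the same order, with a log2 difference of -0.16 ± 0.0559 (adjusted p = 0.616).

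Gstm2 in NZO/HlLtJ measured 35.1, 34.3, 30.3 and 32.6 CPM at 10% fat and 32.1, 34.2, 28.6 and 17.2 CPM at 44% fat, again with the second male library lowest. Its log2 difference was -0.26 ± 0.102 (SE, edgeR adjusted p = 0.643). Gsta4 in CAST/EiJ measured 34.2, 48.8, 42.4 and 46.5 CPM at 10% fat and 40.0, 32.4, 34.3 and 36.2 CPM at 44% fat, which overlapped, with a log2 difference of -0.26 ± 0.0964 (adjusted p = 0.652). Whether diet acted differently between strains was tested directly, and 0 of 10 genes were called in each of the 3 differences of diet effects by edgeR and by DESeq2, with 0, 1 and 0 of 10 at an unadjusted p under 0.05 for NZO/HlLtJ against C57BL/6J, CAST/EiJ against C57BL/6J and NZO/HlLtJ against CAST/EiJ (0.00581%, 0% and 0% of all genes called). The 1 gene was Gsta4, at -0.38 (adjusted p = 0.745).

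**Figure D5:**
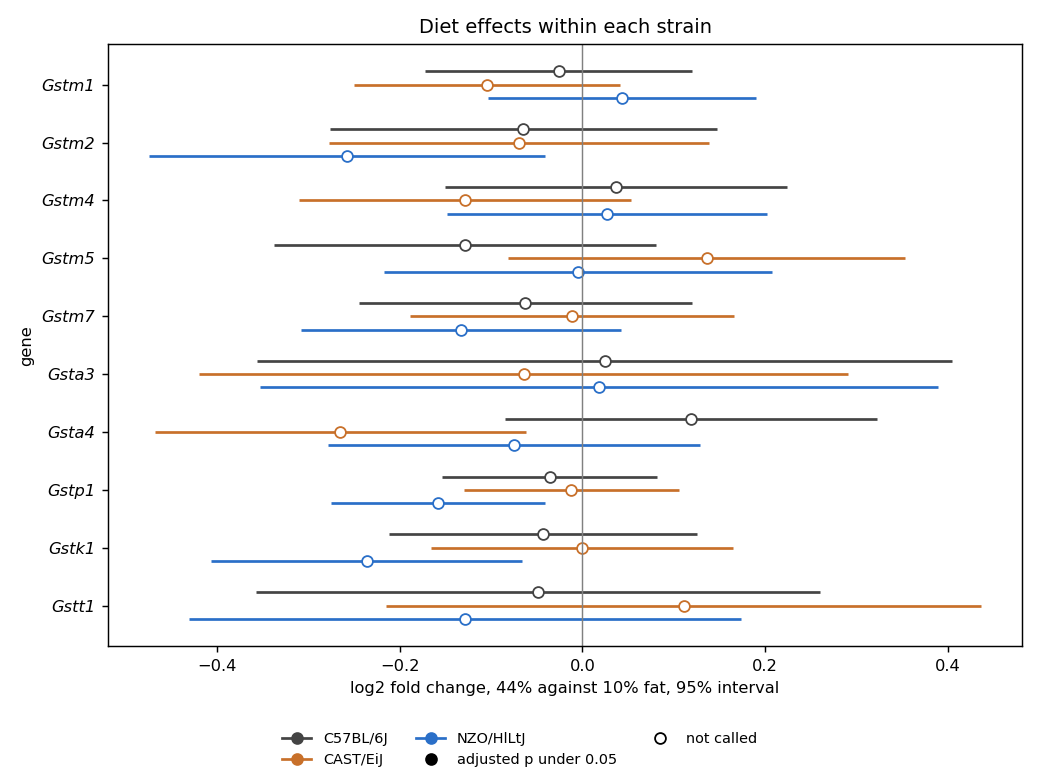
Log2 fold change of 44% against 10% fat (horizontal axis) for each gene (vertical axis) within each strain, with 95% intervals. No point is filled, since no edgeR adjusted p was under 0.05; the point farthest from 0 in NZO/HlLtJ is Gstm2 at -0.26.

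The size of the NZO/HlLtJ diet difference for Gstm2 and Gstk1 hung on 1 library. The second male library at 44% fat had the lowest level of the 8 NZO/HlLtJ libraries for 8 of the 10 genes, the exceptions being Gstm1 and Gsta3. It lay well below the next library for Gstm2 (17.2 CPM), Gstk1 (18.7 CPM) and Gstm7 (44.1 CPM). For Gstt1 (8.16 CPM), Gstp1 (54.2 CPM), Gsta4 (31.1 CPM), Gstm5 (13.2 CPM) and Gstm4 (17.6 CPM) it was lowest by a smaller step. Its summed skeletal muscle markers (8 genes) stood at 4824 CPM, the highest of the 24 libraries. Its summed white adipocyte markers (10 genes) were lowest, at 160 CPM, but barely below the 162 CPM of the first NZO/HlLtJ male library at 10% fat. Its cardiomyocyte markers, at 54003 CPM, were close to the 53293 CPM of the first male library at 44% fat. The part of these in the result was not tested. Without the second male library the diet effect in NZO/HlLtJ was -0.10 for Gstm2 and -0.13 for Gstk1 (edgeR adjusted p = 1.00 for both). Without the first, so that the low library alone stood for the group, it was -0.47 for Gstm2 and -0.37 for Gstk1 and both were called (adjusted p = 0.00218 and 0.0253). For Gstp1 the diet difference in NZO/HlLtJ stayed between -0.20 and -0.12 with any 1 library left out and was not called. The strain calls of Gstm2, Gstk1 and Gstm7 did not hang on the low library: without it, NZO/HlLtJ against C57BL/6J was -0.81 for Gstm2, -0.34 for Gstk1 and 1.41 for Gstm7 (adjusted p = 1.87e-11, 9.87e-06 and 5.07e-13).

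Diet and sample identifiers were partly tied. The sample identifiers fall in 3 ranges, which the labels do not call batches. CAST/EiJ libraries at 10% fat lie in ranges 1 and 2 and those at 44% in ranges 1 and 3, and in NZO/HlLtJ each range holds 1 diet for each sex, so diet and range cannot be told apart there within a sex. For strain, the called differences kept their sign within ranges in 24 of 24 values for CAST/EiJ against C57BL/6J, 14 of 14 for NZO/HlLtJ against C57BL/6J and 17 of 18 for NZO/HlLtJ against CAST/EiJ, the exception being Gsta4. NZO/HlLtJ has no library in range 1, so strain and range were partly tied too. Within ranges 2 and 3 sex and diet were not matched between strains. The signs come from the same libraries that gave the calls, so they are no independent check.

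Sex differences over all strains were small. edgeR called 0 of 10 genes (0.372% of all genes called), DESeq2 also called 0, and 2 of 10 had an unadjusted p under 0.05. These were Gsta3, at 0.24 ± 0.102 (log2 female minus male, SE, adjusted p = 0.485), and Gstm1, at -0.09 ± 0.0403 (adjusted p = 0.499). No difference of sex effects between strains was called (0 of 10 in each of 3 comparisons). At an unadjusted p under 0.05 the counts were 1 of 10 for NZO/HlLtJ against C57BL/6J and 1 for CAST/EiJ against C57BL/6J. For NZO/HlLtJ against CAST/EiJ the count was 3, with the smallest p for Gstm5. In CAST/EiJ its females measured 8.95, 8.91, 8.77 and 10.8 CPM and its males 11.6, 11.9, 10.3 and 15.6 CPM, while in NZO/HlLtJ females measured 15.8, 16.7, 16.8 and 15.7 CPM and males 13.8, 14.5, 14.8 and 13.2 CPM (10% fat first). The sexes overlapped in CAST/EiJ and not in NZO/HlLtJ, though the share of all genes without such overlap was not counted. The difference of sex effects, NZO/HlLtJ minus CAST/EiJ, was 0.61 ± 0.145 (SE, edgeR adjusted p = 0.27, with 0% of all genes called).

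Some other glutathione transferases in the gene table differed by strain, in numbers to be read against the 58.8%, 35.5% and 60.3% of all tested genes called in the same 3 comparisons. Of 11 other soluble members tested, 5 were higher and 3 lower in CAST/EiJ than in C57BL/6J, 2 higher and 2 lower in NZO/HlLtJ, and 3 higher and 6 lower in NZO/HlLtJ than in CAST/EiJ. The 4 called in NZO/HlLtJ against C57BL/6J are near the share over all genes. Their medians were -0.02, 0.12 and -0.53 on the log2 scale. Among them Gsta1, a neighbour of Gsta4, fell in NZO/HlLtJ by 1.97 on the log2 scale, and Gstm6, inside the mu cluster, rose by 1.16 (edgeR adjusted p = 8.1e-08 and 0.000257). Both are low, at means of 2.06 and 0.539 CPM in C57BL/6J and NZO/HlLtJ for Gsta1 and 1.17 and 2.68 CPM for Gstm6. The coding sequences of Gsta1 and Gsta2 are 98.05% identical, and the division of reads between them was not tested. Of 6 membrane-bound members, 3 were higher in CAST/EiJ and none lower. In NZO/HlLtJ 2 were higher and Mgst1, the microsomal transferase, was lower by -0.92 (adjusted p = 0.000109). Against CAST/EiJ, 3 of the 6 were lower in NZO/HlLtJ and none higher.

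Genes that make and use glutathione moved in both directions, in CAST/EiJ about as often as genes at large. Of 17 genes of glutathione synthesis, recycling and breakdown, 5 were higher and 5 lower in CAST/EiJ against C57BL/6J (median 0.0093, with 58.8% of all genes called), 1 higher and 1 lower in NZO/HlLtJ (median 0.06, with 35.5% of all genes called), and 6 higher and 6 lower in NZO/HlLtJ than in CAST/EiJ (median 0.04, with 60.3%). Gclc, the catalytic subunit of the rate-limiting enzyme of glutathione synthesis, measured 11.9 ± 1.17 CPM in C57BL/6J, 21.6 ± 1.99 CPM in CAST/EiJ, and 13.0 ± 0.868 in NZO/HlLtJ (SD, n = 8), and the log2 difference of CAST/EiJ from C57BL/6J was 0.86 (edgeR adjusted p = 2.82e-10). Its modifier subunit Gclm was not called in either strain, at -0.21 and -0.12 (adjusted p = 0.0541 and 0.34), nor was the reductase Gsr, at 0.11 and -0.02 (adjusted p = 0.109 and 0.83). Cbs, which feeds cysteine synthesis, was higher in CAST/EiJ by 3.70 (adjusted p = 2.07e-10).

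Of 15 peroxidases, glutaredoxins and peroxiredoxins, 8 were higher and 2 lower in CAST/EiJ than in C57BL/6J, where 58.8% of all genes were called, and 4 higher and 2 lower in NZO/HlLtJ, where 35.5% were called. Taken in either direction, both totals are near those shares. By direction the CAST/EiJ calls leaned to higher, where 29.1% of all genes were called higher and 29.7% lower. The cytosolic glutaredoxin Glrx was higher in NZO/HlLtJ by 0.91 (edgeR adjusted p = 9.11e-10), and Gpx4, the peroxidase that repairs lipid hydroperoxides, was lower in CAST/EiJ by -0.42 (adjusted p = 9.62e-08). Of 8 genes of conjugate export and the glyoxalase route, 4 were higher and 1 lower in CAST/EiJ, among them the glyoxalase Glo1 at 0.99 (adjusted p = 2.49e-14). In NZO/HlLtJ 3 were higher and none lower, among them the conjugate pump Abcc1 at 0.38 (adjusted p = 3.62e-07). Taken in either direction, both totals are near the 58.8% and 35.5% of all genes. Of 12 aldehyde-clearing genes, 4 were higher and 7 lower in CAST/EiJ, a total above the 58.8% of all genes. In NZO/HlLtJ 1 was higher and 4 were lower, a total again near the 35.5% of all genes. Aldh2, the mitochondrial aldehyde dehydrogenase, was lower in both, at -0.78 and -0.24 (adjusted p = 3.14e-11 and 0.000339).

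Of 25 other targets and regulators of NRF2, 13 were higher and 4 lower in CAST/EiJ against C57BL/6J (median 0.22, with 58.8% of all genes called), 3 higher and 7 lower in NZO/HlLtJ (median -0.03, with 35.5%), and 5 higher and 13 lower in NZO/HlLtJ than in CAST/EiJ (median -0.26, with 60.3%). Taken in either direction, the called totals lie near or somewhat above these shares. By direction, 29.1% of all genes were higher and 29.7% lower in CAST/EiJ against C57BL/6J. In NZO/HlLtJ against CAST/EiJ 30.5% were higher and 29.8% lower. The calls of this list thus leaned to higher in CAST/EiJ in both comparisons, which share the CAST/EiJ libraries. Nfe2l2, which encodes NRF2 itself, measured 56.7 ± 6.28 CPM in C57BL/6J, 78.1 ± 7.86 CPM in CAST/EiJ, and 46.9 ± 3.31 in NZO/HlLtJ (SD, n = 8), with log2 differences from C57BL/6J of 0.46 and -0.27 (edgeR adjusted p = 1.25e-06 and 0.00115). Nqo1, the quinone reductase often used as a readout of NRF2, ran the other way, at 31.2 ± 2.45, 17.3 ± 1.83 and 38.9 ± 5.18 CPM, with differences of -0.85 and 0.31 (adjusted p = 1.16e-10 and 0.000138). Keap1, the NRF2 inhibitor, was not called, at -0.07 and 0.02 (adjusted p = 0.14 and 0.739). No gene of these lists was called for diet.

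In the 250 bases upstream of the transcription starts that RefSeq gives for GRCm38.p6, 9 of the 10 genes had an entry (12 entries, none for Gsta4). The core of the antioxidant response element, TGACNNNGC, on either strand, was present in Gsta3, Gstm5 and 1 of the Gstm7 entries, while 10.2% of 32851 promoters of the same length hold it. That Gstm7 entry (107931615 to 107931864) lies mostly inside the annotated gene (107926334 to 107931817, minus strand), and so does its match. The Gstm7 entry wholly outside the gene (107931818 to 107932067) had no match. The AP-1 motif TGANTCA was present in Gstm5 and Gstp1, against 6.75% of promoters. A match describes letters only.

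Likeness of pattern was measured as Pearson's r of log2(CPM + 0.5) over the 24 libraries, against 12146 genes with a mean of at least 1 CPM. Gstm2 and Gstk1, on different chromosomes, were each other's closest match (r = 0.978), followed by As3mt for Gstm2 (0.973) and Fam234b for Gstk1 (0.968). Gstm1 was closest to Fam234b and Map6d1 (0.959 and 0.956), Gstm4 to Ptprn2 and Ppp1r1c (0.976 and 0.972), Gstm7 to Hdhd3 and Mrpl15 (0.964 and 0.959), Gstm5 to Entpd4 and Pigp (0.942 and 0.937) and Gstt1 to Cilp2 and Scara5 (0.972 and 0.969). The closest genes were less alike for Gsta3 (Wars2, 0.898, and Cd28, 0.877), Gsta4 (Zfp82, 0.729, and Asb2, 0.721) and Gstp1 (Fbxo10, 0.722, and Spata33, 0.719). Ptprn2 and Ppp1r1c averaged 6.78 and 7.59 CPM in NZO/HlLtJ, but only 0.449 and 0.134 CPM in CAST/EiJ and less in C57BL/6J. Map6d1 averaged 2.93 CPM in CAST/EiJ, 0.398 CPM in C57BL/6J and 0.166 CPM in NZO/HlLtJ. For these genes r mostly reflects a contrast between strains, with very low levels outside the highest strain. Likeness within a strain was not tested. The 24 points fall in 3 strains of 8 and share their library scaling, and no p is given.

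Markers of several other cell types differed by strain as well, in counts to be read against the share of all tested genes called. Against C57BL/6J that share was 35.5% in NZO/HlLtJ (17.9% higher, 17.6% lower) and 58.8% in CAST/EiJ (29.1% higher, 29.7% lower). All 10 fibroblast markers were higher in NZO/HlLtJ than in C57BL/6J (median 0.57), with a summed level of 2858 to 3614 CPM against 2101 to 2396 CPM in C57BL/6J and 1752 to 2137 CPM in CAST/EiJ. Skeletal muscle markers summed to 2557 to 4824 CPM in NZO/HlLtJ and 1312 to 1735 CPM elsewhere, and of 7 tested 2 were higher and 2 lower in NZO/HlLtJ against C57BL/6J. Of 10 T and NK cell markers 7 were lower in CAST/EiJ against C57BL/6J (median -1.53), at sums of 0.464 to 1.72 CPM. Schwann cell markers summed to 61.9 to 73.8 CPM in NZO/HlLtJ, 50.9 to 59.7 CPM in C57BL/6J and 42.7 to 59.2 CPM in CAST/EiJ, and of 10 genes 5 were higher and none lower in NZO/HlLtJ against C57BL/6J (median 0.47). Of 10 macrophage markers 5 were lower and none higher in NZO/HlLtJ against C57BL/6J, at overlapping sums of 178 to 248 and 198 to 250.5 CPM. Of 10 erythroid markers 3 were called higher and none lower in CAST/EiJ against C57BL/6J (median 0.86), at sums of 4358 to 22083 and 2927 to 8889 CPM. The 3 called higher are near the 29.1% of all genes called higher there. White adipocyte markers summed to 176 to 4025 CPM in CAST/EiJ, 210 to 994 CPM in C57BL/6J and 160 to 854 CPM in NZO/HlLtJ. The 4025 CPM came from the first CAST/EiJ male library at 10% fat, and none of these markers was called in CAST/EiJ against C57BL/6J. No marker of these lists was at 0 in all libraries. Their part in the strain differences of the transferases was not tested.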

How the data were processed

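Heart RNA libraries (polyadenylated RNA, paired reads, spike-ins added, per the labels' protocols) were represented by a gene table that the authors deposited, in a unit of expected counts (estimated read counts), of which 19.3% were not whole. The authors also deposited variance-stabilized values on a log2 scale, used here only as an alternative. The submitters' processing notes name GRCm38 and DESeq2. Not given in the sources used here are the aligner, counter, strand setting and annotation release.

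Counts were rounded and tested with edgeR 4.0.16 in R 4.3.3: filterByExpr (minimum count 10, total 15), TMM scaling (factors 0.954 to 1.06), a mean for each of 12 groups, a robust quasi-likelihood test of 14 contrasts and Benjamini-Hochberg adjustment over 17203 genes, with a threshold of 0.05. Alternatives used DESeq2 1.42.0 and limma 3.58.1. Replicate pairs differed beyond counting noise in all 12 groups. The model was tested on simulated data, in which 100 genes were changed by 0.3 log2 and 100 by 1. These were picked at random among genes with a mean of at least 1 CPM. There it called 18% of diet effects of 0.3 log2 in NZO/HlLtJ and 93% of those of 1. For strain differences between NZO/HlLtJ and C57BL/6J it called 42% and 93%. Diet effects as small as 0.3 would thus mostly be missed. The adjusted p depends on how many genes change and each gene has its own spread, so these percentages are not the power for the 10 genes.

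Positions, exon lengths and transcripts came from GENCODE M21. For 8 of the 10 genes the start and end in the deposited annotation equal those of M21, and for Gsta4 and Gstp1 they differ, so those printed are the authors'. The 10 genes and the other lists were chosen with earlier results of these data known. Named from each list were up to 4 called genes of smallest adjusted p per comparison, plus Nfe2l2, Keap1, Nqo1, Gclc, Gclm and Gsr.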

Additional observations from a re-analysis of the deposited data

Results flagged for a closer look

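Of 90 sets of 4 or 8 libraries examined for a value far from the others, 8 held one. Chance gives about 1 in 20 for separate sets. These sets overlap, since each 4 lie within an 8 and all genes share the libraries, so the 8 cannot be read against that rate. The second NZO/HlLtJ male library at 44% fat accounted for 4. It was lowest of the 8 NZO/HlLtJ libraries for Gstm2, at 17.2 CPM with the next at 28.6 CPM, and for Gstk1, at 18.7 CPM with the next at 26.2 CPM. Its Gstm7 level of 44.1 CPM, with the next at 58.3 CPM, was far from the rest both among all 8 and among the 4 at 44% fat.

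The first C57BL/6J female library at 44% fat was lowest for Gstk1, at 31.3 CPM, with the next at 35.7 CPM among 8 and 37.5 CPM among 4. The second CAST/EiJ female library at 10% fat was lowest of 4 for Gstm2, at 105 CPM with the next at 126 CPM. The first CAST/EiJ female library at 44% fat was lowest of 4 for Gstm4, at 8.07 CPM with the next at 8.98 CPM.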

How the results depend on the processing

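No called difference changed direction under other size factors, no count filter, a filter on the mean, DESeq2, limma-voom, the identifier range as a block, a fit on only the strains compared, limma on the deposited values, or with any 1 of 24 libraries left out. With 1 library left out, the number of the 10 genes called was 8 throughout for CAST/EiJ against C57BL/6J, 6 to 8 for NZO/HlLtJ against C57BL/6J and 8 to 9 for NZO/HlLtJ against CAST/EiJ. It was 0 to 2 for diet in NZO/HlLtJ, 0 to 1 for diet over all strains, 0 to 1 for sex and 0 to 1 for the difference of sex effects between NZO/HlLtJ and CAST/EiJ. Each of these calls arose without the first NZO/HlLtJ male library at 44% fat, where the lone library left is assumed to vary like the other groups. They were Gstm2 for diet over all strains (-0.20), sex (0.19) and the difference of sex effects (0.64), and Gstm2 and Gstk1 for diet in NZO/HlLtJ. Gsta4 for NZO/HlLtJ against C57BL/6J, at -0.17, gained a call with only both strains fitted (edgeR adjusted p = 0.0143) and without any 1 of 5 libraries. No paired analysis was possible because replicate numbers were given in accession order and pair no libraries. Each group has 2 libraries, which limits the precision of the diet and sex comparisons. Counting error at the lowest count is 10.6% for Gsta3.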
